A study of Mus musculus with 51 samples.

Results

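The 32 mouse genes described here carry a name made of Zfp9 followed by 2 digits, from Zfp930 to Zfp964, and were taken from the 23358 entries of the femur RPKM tables by that name alone. The tables hold 329 other genes whose names begin with Zfp. Most proteins of this kind join a KRAB domain to a row of zinc fingers, each of which reads a few bases of DNA. The KRAB domain recruits TRIM28, and TRIM28 brings SETDB1, the methyltransferase that writes trimethylation of histone H3 at lysine 9 (H3K9me3), a mark of silent chromatin. The best known targets are retroviral elements, and the clusters of zinc finger genes themselves are a classical place where H3K9me3 covers the 3′ ends of genes in many tissues. Vitamin C (VitC) is a cofactor of the demethylases that remove this mark and of the TET enzymes that turn 5-methylcytosine into 5-hydroxymethylcytosine (5hmC), so the study compared marks and RNA with and without it.

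RNA was sequenced from femurs of 20-week-old mice in 3 groups of 3, wild type (WT) and 2 groups homozygous for the Gulo tm1Mae allele, which cannot make VitC. The Gulo mice drank 3.3 g/L VitC for all 20 weeks (VitC+) or for 15 weeks and then none for 5 weeks (VitC+/-). A second RNA experiment used femurs of 11-week-old mice, 3 each of Tet1 cKO, Tet2 cKO and Tet1/2 cKO mice, which carry homozygous floxed alleles and Prrx1-Cre, and of Ctrl mice, which carry Prrx1-Cre and wild type Tet alleles. Prrx1-Cre is active in limb mesenchyme and its descendants, so other cells of the bone keep both genes. Marrow was flushed and periosteum removed before extraction. Enriched regions (peaks) of 5hmC were listed for VitC+ and VitC+/- femurs, for Ctrl and Tet1/2 cKO femurs (3 mice each) and for MC3T3-E1 cells, a mouse calvarial pre-osteoblast line, grown in 2 cultures each without VitC (VitC-) or with VitC at 50 µg/ml (VitC+). Peaks of H3K9me3 and H3K27me3, the Polycomb mark, were listed for 2 cultures of the same line each with and without VitC. The MC3T3-E1 cells of the 5hmC lists were cultured for 28 days. For the histone samples the labels give 28 days of culture and the methods 7 days, so the 5hmC and histone lists may differ in culture time. Each list came from pooled samples, so shares of a gene within peaks have no replicate error and were not tested.

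The 9 VitC libraries held an estimated 7.44 M reads in WT replicate 1 and 30.5 to 46.4 M in the others. The Tet libraries held 28.6 to 49.8 M (M stands for 1e6 reads). Gulo stood at 0.522, 0.486 and 0 RPKM in WT replicates 1 to 3 and at 0.180, 0.0352 and 0.0294 in VitC+, against 0.0126 to 0.0186 in VitC+/-. By this level the libraries labelled WT replicate 3 and VitC+ replicate 1 went against their labels, and calls that rest on them are also given without them. All Gulo values lay under 1 RPKM, so they do not settle the genotype of these mice. Tet1 was not lower in the libraries labelled Tet1 cKO (532 to 773 normalized counts) than in Ctrl (374 to 435), and Tet2 stood at 1834 to 2245 in Tet2 cKO against 2236 to 2512 in Ctrl. These counts cover whole genes and only 1 exon of each was floxed, so they do not check the deletion. Sums of cell type markers differed between the VitC groups. The sum over 10 osteoblast and osteocyte markers had a median of 7829 RPKM in VitC+, 2386 in VitC+/- and 2027 in WT, and that over 6 neutrophil markers 34573, 16648 and 68929. The 5 osteoclast markers summed to 2257, 5352 and 825, the 6 B-cell precursor markers to 95.4, 7.60 and 88.5, and the 3 erythroid markers present to 157, 326 and 148. The 5 adipocyte markers summed to medians of 296, 362 and 117, with 1 VitC+/- library at 2503, and the 6 skeletal muscle markers to 27.6, 11.3 and 207, with overlapping groups. Their part in the RNA results below was not tested, and in whole femurs fewer cells of a type and less RNA per cell cannot be told apart.

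The 32 genes lie on 11 chromosomes, 10 of them on chromosome 17, and span 6.79 to 46.9 kb from start to end. What genes of this kind share in sequence is an array of zinc fingers in 1 long coding exon. It was taken to be the longest coding exon, with no check of protein domains. That exon is shown first because the H3K9me3 results turn on it. Neighbouring fingers are joined by a short linker, and GGAGAGAAACC, a common spelling of that linker, is the 11-base word found most often in these exons (146 copies on the coding strand, with 114 of the next). Within the longest coding exon of each gene, as annotated by RefSeq on GRCm38 (mm10), these letters stood at least once on either strand in 26 of 32 Zfp9xx genes, against 200 of 17438 autosomal genes with a coding exon (1.15%). They stood 3 or more times on the coding strand in 21 of the 32, against 107 of the 17438 (0.614%). Other Zfp genes shared the trait less often: of 306, 118 held the letters at least once and 59 held them 3 or more times. None of the 32 exons held the letters on the strand opposite the coding strand. The letters come from these genes and the exon was chosen after the H3K9me3 values had been seen, so the shares are given with no test, and a match is a description of sequence, not a binding site. In the windows of 300 bases below, capitals mark the linker letters. Each window was picked as the first in its exon with the most copies, so it is not a typical stretch. In a window of that length at the middle of the exon, with both strands counted, the letters fell in 22 of 32 Zfp9xx genes and in 0.763% of all. The first pair of windows comes from genes within H3K9me3 peaks along most of their length, the third from a gene with the mark in its 3′ part only, and the fourth from a gene with none.
Zfp934, chr13:62518107-62518406, minus strand: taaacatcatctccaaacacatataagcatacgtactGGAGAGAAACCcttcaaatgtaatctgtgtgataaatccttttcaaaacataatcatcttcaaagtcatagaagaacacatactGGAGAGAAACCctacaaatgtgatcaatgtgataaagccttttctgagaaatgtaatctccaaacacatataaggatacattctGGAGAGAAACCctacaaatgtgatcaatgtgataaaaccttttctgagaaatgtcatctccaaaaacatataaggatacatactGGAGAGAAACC
Zfp932, chr5:110008782-110009081, plus strand: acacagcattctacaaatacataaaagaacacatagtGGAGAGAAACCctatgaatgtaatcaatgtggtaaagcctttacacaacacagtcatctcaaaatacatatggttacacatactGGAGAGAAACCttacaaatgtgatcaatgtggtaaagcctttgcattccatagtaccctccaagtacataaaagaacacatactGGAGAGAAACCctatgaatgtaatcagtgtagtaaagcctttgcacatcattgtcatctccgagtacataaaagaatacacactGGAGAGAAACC
Zfp948, chr17:21587054-21587353, plus strand: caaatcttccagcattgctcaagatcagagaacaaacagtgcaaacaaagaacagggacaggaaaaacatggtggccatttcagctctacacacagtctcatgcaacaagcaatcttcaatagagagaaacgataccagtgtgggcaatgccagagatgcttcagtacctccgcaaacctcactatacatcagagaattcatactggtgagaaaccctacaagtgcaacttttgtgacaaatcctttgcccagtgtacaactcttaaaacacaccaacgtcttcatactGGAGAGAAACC
Zfp963, chr8:69742750-69743049, minus strand: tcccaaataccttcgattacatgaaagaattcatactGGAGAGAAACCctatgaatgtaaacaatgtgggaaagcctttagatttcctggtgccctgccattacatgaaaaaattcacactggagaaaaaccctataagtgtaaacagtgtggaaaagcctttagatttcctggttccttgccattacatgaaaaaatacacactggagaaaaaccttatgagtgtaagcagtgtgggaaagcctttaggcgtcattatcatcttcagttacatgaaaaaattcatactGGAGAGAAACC
The repeat of the linker is regular in Zfp934 and Zfp932, with 4 copies in each window, while Zfp948 has 1 and Zfp963 has 2. The first 3 windows lay fully within H3K9me3 peaks in both VitC- and VitC+ cells and the Zfp963 window in neither.

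Start sites of the genes look different and are shown because the mark stopped short of them. Zfp942 and Zfp943 are transcribed away from each other on chromosome 17, and all 94 bases between their start sites are given here on the plus strand, with CG dinucleotides, the sites of DNA methylation and of 5hmC, in capitals. The 250 bases before the starts of Zfp932 and Zfp963 are given 5′ to 3′ on each gene's own strand.
Zfp942 and Zfp943, chr17:21962465-21962558: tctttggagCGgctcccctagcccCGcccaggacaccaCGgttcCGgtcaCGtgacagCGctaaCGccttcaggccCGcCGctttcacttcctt
Zfp932, chr5:109996260-109996509, plus strand: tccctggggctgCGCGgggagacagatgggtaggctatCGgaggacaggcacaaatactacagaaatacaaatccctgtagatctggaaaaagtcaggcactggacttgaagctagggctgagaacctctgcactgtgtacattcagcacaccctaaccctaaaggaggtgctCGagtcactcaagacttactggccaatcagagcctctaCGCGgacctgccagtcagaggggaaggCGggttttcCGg
Zfp963, chr8:69749963-69750212, minus strand: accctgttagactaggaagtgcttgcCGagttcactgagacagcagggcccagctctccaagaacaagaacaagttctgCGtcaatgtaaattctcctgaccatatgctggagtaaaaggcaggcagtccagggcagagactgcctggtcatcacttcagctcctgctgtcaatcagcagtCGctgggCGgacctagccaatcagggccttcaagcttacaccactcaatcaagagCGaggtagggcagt
The stretch between Zfp942 and Zfp943 holds 9 CG dinucleotides, that before Zfp932 holds 8 and that before Zfp963 holds 5. None of these 3 stretches touched an H3K9me3 peak in either list. RefSeq promoter sequences of 300 bases (250 before and 50 after each start) were at hand for 29 of the 32 genes, not for Zfp930, Zfp934 and Zfp960. Their 35 promoters held 3 to 24 CG dinucleotides with a median of 9, against a median of 16 in 316 promoters of other Zfp genes and of 14 in all 18218.

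H3K9me3 covered most of the Zfp9xx genes in MC3T3-E1 cells, with or without VitC. A gene was counted as covered where at least 10% of its locus lay within peaks. In VitC- cells 23 of the 32 genes were covered, against 5.51% of the 22289 autosomal entries, and in VitC+ cells 24 of the 32, against 3.70%. At least 50% of the locus lay within peaks in 14 of them without VitC and in 16 with it, where the shares over all entries were 1.08% and 1.02%. Among 321 other autosomal Zfp genes, 116 were covered without VitC and 118 with it. The median share of the locus within peaks was 43.2% in VitC- and 51.2% in VitC+ for the Zfp9xx genes and 0% for all entries in both. In all, 329 kb of the 32 loci lay within peaks in VitC- and 357 kb in VitC+, and 315 kb lay within peaks in both, which is 95.8% of the first and 88.2% of the second.

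**Figure D1:**
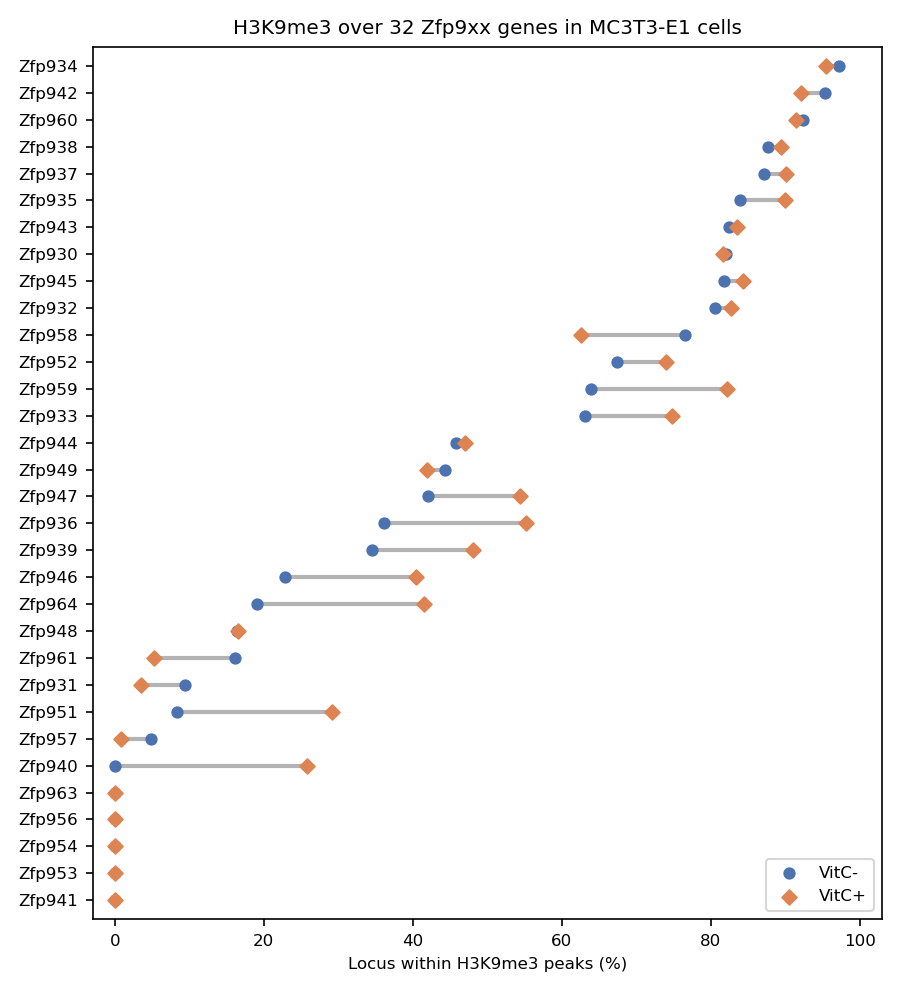
Share of each Zfp9xx locus within H3K9me3 peaks in MC3T3-E1 cells, in percent, with circles for VitC- and diamonds for VitC+ and a grey line joining both for each gene. Each list pools 2 cultures, so there are no error bars, and 5 genes sit at 0 in both.

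The 6 genes with the largest shares without VitC lay almost whole within peaks in both lists. Zfp934 had 97.3% of its locus within peaks in VitC- and 95.5% in VitC+. Zfp942 had 95.4% and 92.1%, and its peak ran over 44.7 kb at chr17:21916070-21960818 in VitC- cells, ending 1.65 kb short of its start site. Zfp960 stood at 92.4% and 91.4%, Zfp938 at 87.8% and 89.4%, Zfp937 at 87.2% and 90.1% and Zfp935 at 83.9% and 89.9%. At the other end, Zfp941, Zfp953, Zfp954, Zfp956 and Zfp963 had no base within a peak in either list. Counting each list alone, 6 genes had none in VitC- and 5 in VitC+, against 76.7% and 81.8% of all entries.

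From VitC- to VitC+ the share of the locus was larger in 18 Zfp9xx genes and smaller in 9, whereas over all entries it was larger in 6.49% and smaller in 18.9%. A difference of at least 10 percentage points upward was seen in 9 of the 32 (0.983% of all entries) and downward in 2 (2.21%). Other Zfp genes also went upward more often than downward. Of 321, the share was larger in 92 and smaller in 74, by at least 10 percentage points in 27 and 14. The largest upward difference was that of Zfp940, from 0% to 25.9%, where the VitC+ list held a peak of 2.72 kb at chr7:29843725-29846446 over the 3′ end. Zfp964 went from 19.1% to 41.5%, Zfp951 from 8.38% to 29.2%, Zfp936 from 36.1% to 55.2% and Zfp959 from 63.9% to 82.2%. The largest downward differences were those of Zfp958, from 76.6% to 62.6%, and Zfp961, from 16.1% to 5.27%. Zfp931 went from 9.41% to 3.52%, Zfp957 from 4.82% to 0.823%, and Zfp942 had the fifth largest. The whole list held 44832 peaks over 66.8 Mb without VitC and 33708 peaks over 44.0 Mb with it, so the Zfp9xx loci had a larger and the genome a smaller covered length in VitC+. The highest fold enrichment of a peak on each marked gene ran from 2.67 to 4.09 in VitC- and from 3.23 to 5.46 in VitC+, while the median fold of all peaks was 2.74 and 3.27. With 1 pooled list per condition, none of these differences has a replicate check. Part of the VitC- coverage also rested on weak peaks, as 4 of the 32 genes were covered there when only peaks of at least 4-fold enrichment were kept, against 0.175% of all entries. In VitC+ cells 20 of the 32 were covered at that limit, against 1.22%, so both lists differ more at this limit than without it.

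The mark lay over the 3′ part of the genes and spared their starts. Within 1 kb of the annotated start site, none of the 32 genes had a base within an H3K9me3 peak in VitC- cells, and only Zfp936 had any in VitC+ cells, in a peak of 0.566 kb at chr7:43177555-43178120. Over all annotated autosomal genes 96.7% in VitC- and 97.2% in VitC+ had no base within a peak there, so a bare start was not particular to the Zfp9xx genes. The median share within peaks was 11.99% over the 5′ side of the locus, cut at its midpoint, and 86.5% over the 3′ side in VitC-, and 14.1% and 94.4% in VitC+. Over the longest coding exon, taken to be that of the zinc fingers, at least 50% lay within peaks in 22 of 32 genes in VitC- and in 25 of 32 in VitC+, against 2.39% and 2.15% of all genes with a coding exon. The exons of Zfp940 (chr7:29844780-29846248) and Zfp964 (chr8:69662943-69664170) went from 0% within peaks in VitC- to 100% in VitC+. This exon was chosen after the coverage had been seen.

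**Figure D2:**
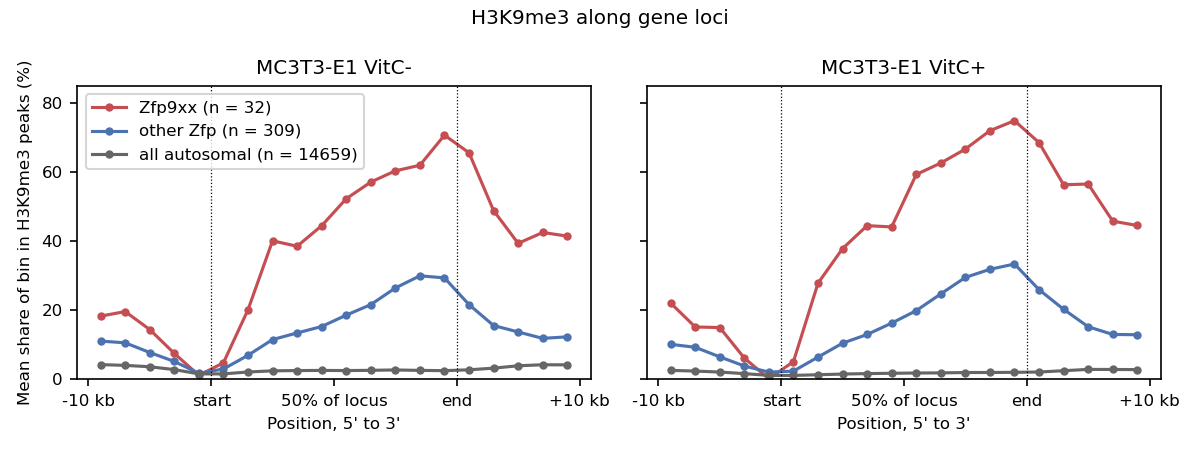
Mean share of each bin within H3K9me3 peaks, in percent, from 10 kb before the start site over 10 equal bins of the gene body to 10 kb after the end, for 32 Zfp9xx genes, other Zfp genes and all autosomal genes of at least 5 kb. In the Zfp9xx genes the mean rises from 4.72% in the first bin of the gene body to 70.7% in its last bin in VitC- and from 5.07% to 74.9% in VitC+.

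Averaged over the 32 genes, the 2 kb before the start had 1.07% of their bases within peaks in VitC- and 0.0766% in VitC+, and the 2 kb after the end 65.6% and 68.6%. Over all autosomal genes the mean stayed between 1.51% and 2.65% along the gene body in VitC-. The same slope was present in 309 other Zfp genes, from 2.92% in the first bin to 29.3% in the last, at a lower level. Coverage went on beyond the genes. The 50 kb on the 3′ side had a median of 27.6% within peaks in VitC- and 30.2% in VitC+, the 50 kb on the 5′ side 14.1% and 13.8%. On chromosome 17, 7 of the genes (Zfp942 to Zfp948) stand in 1.30 Mb at chr17:21567046-22867134, and 34.3% of that interval lay within peaks in VitC- and 38.2% in VitC+.

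Genes whose exon repeated the linker letters were mostly those with the mark. In VitC- cells the exon was at least 50% within peaks in 19 of the 21 Zfp9xx genes with 3 or more copies, in 0 of the 5 with 1 or 2 copies and in 3 of the 6 with none. In VitC+ cells the counts were 20 of 21, 1 of 5 and 4 of 6. The exceptions with 3 or more copies in VitC- were Zfp963, with 3 copies and no mark, and Zfp931, with 7 copies and 38.2% of the exon within peaks. Over all autosomal genes, 80.4% of the 107 exons with 3 or more copies were at least 50% within VitC- peaks, 34.5% of the 87 with 1 or 2 copies and 1.74% of the 17244 with none. Reads of near-identical zinc finger exons can map to more than 1 gene, how such reads were treated is not given in the sources used here, and their part in these shares was not tested.

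The silent Polycomb mark was nearly absent. H3K27me3 covered 1 of the 32 genes in VitC- and in VitC+ cells, Zfp957, against 21.9% and 16.7% of all entries. It was rare on other Zfp genes as well, with 20 of 321 covered in VitC- (6.23%) and 13 in VitC+ (4.05%). Zfp957 had 51.2% of its locus within H3K27me3 peaks in VitC- and 23.6% in VitC+, and its main VitC- peak spanned 14.8 kb at chr14:79223288-79238052. In VitC+ cells the same stretch held several shorter peaks, the longest of 2.55 kb. Zfp941 had 4.7% within peaks in VitC- and 0% in VitC+, and the other 30 genes had no base within an H3K27me3 peak in either list. Zfp957 was among the genes with least H3K9me3 and had no linker letters in its longest coding exon.

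5hmC covered few of the Zfp9xx genes in MC3T3-E1 cells. Only Zfp940 had at least 10% of its locus within 5hmC peaks in VitC- (10.3%), against 14.3% of all entries, and only Zfp940 (15.2%) and Zfp963 (30.7%) in VitC+, against 35.2%. The share was larger with VitC in 14 of the 32 genes and smaller in 15, where over all entries it was larger in 50.2% and smaller in 26.0%. The loci held 22.0 kb within peaks in VitC- and 21.2 kb in VitC+, of which 2.69 kb were the same bases. The largest differences were those of Zfp963, from 8.04% in VitC- to 30.7% in VitC+, of Zfp958, from 7.51% to 0%, of Zfp948, from 8.73% to 2.08%, and of Zfp957, from 2.28% to 8.77%. On Zfp963, VitC+ added a peak of 0.695 kb between 0.695 and 1.39 kb downstream of the start, at chr8:69748573-69749267, with a fold enrichment of 6.92. A longer one of 1.62 kb over the zinc finger exon, at chr8:69741870-69743485, reached 13.1-fold, where the VitC- peak at that end measured 0.669 kb and 4.70-fold.

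**Figure D3:**
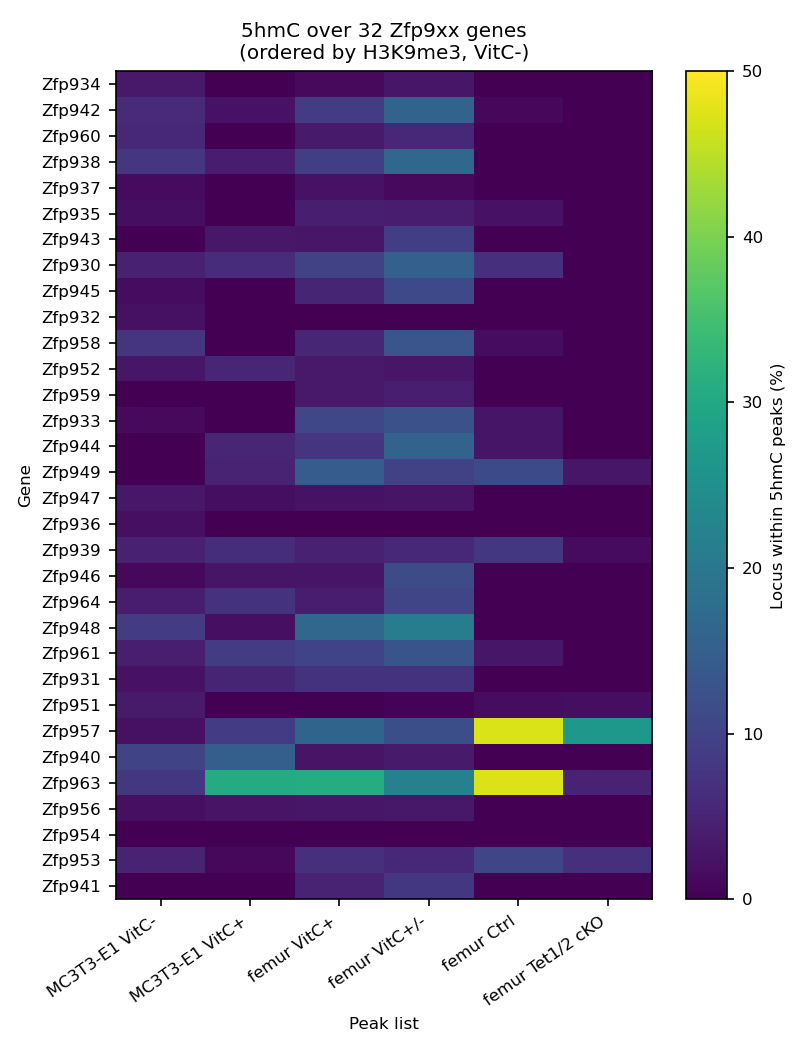
Share of each Zfp9xx locus within 5hmC peaks, in percent, in the 6 pooled lists of MC3T3-E1 cells, VitC femurs and Tet femurs. Zfp963 and Zfp957 reach 47.4% and 47.2% in Ctrl femurs, and 19 of the 32 genes are at 0 there.

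In the VitC femurs, the VitC+/- list of 5hmC covered more bases of the Zfp9xx genes than the VitC+ list. In VitC+ femurs 5 of the 32 genes were covered, Zfp933, Zfp948, Zfp949, Zfp957 and Zfp963, against 25.3% of all entries. In VitC+/- femurs 13 were covered, against 20.9%. The share was larger in VitC+/- in 21 genes and smaller in 8, while over all entries it was larger in 24.1% and smaller in 43.3%. No gene moved by 10 percentage points or more, where 0.422% of all entries did so upward and 2.73% downward. No base lay within a peak in 4 genes in VitC+ and 3 in VitC+/-, against 35.6% and 36.7%. The newly covered genes went up by 2.94 to 8.80 percentage points, from 9.97% to 12.9% in Zfp961 and from 2.81% to 11.6% in Zfp946. The 32 loci held 41.2 kb within peaks in VitC+ and 56.5 kb in VitC+/-, of which 31.7 kb were shared, 77.1% of the first and 56.2% of the second. The genes with most 5hmC bases in VitC+ were Zfp957, Zfp948, Zfp949 and Zfp942. Zfp957 stood at 16.1% in VitC+ and 11.96% in VitC+/-, Zfp948 at 16.6% and 21.2%, Zfp949 at 14.6% and 9.93%, and Zfp942 at 8.70% and 15.9%. Zfp963 had the largest share in both, 31.0% and 21.8%.

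In the Tet experiment 4 genes were covered in Ctrl femurs, Zfp949, Zfp953, Zfp957 and Zfp963, against 50.7% of all entries, and 1 in Tet1/2 cKO femurs, Zfp957, against 26.9%. In Ctrl 19 of the 32 genes had no base within a peak, against 28.2% of all entries. Over the 32 loci 32.8 kb lay within peaks in Ctrl and 13.1 kb in Tet1/2 cKO. The share was smaller in Tet1/2 cKO in 12 of the 13 genes with any 5hmC peak and larger in 1. Of 16100 entries with any peak it was smaller in 15576 and larger in 460, which are 69.9% and 2.06% of all 22289. Of 267 other Zfp genes with any peak it was smaller in 260 and larger in 7, so a smaller share was not particular to the Zfp9xx genes. On Zfp963 the share went from 47.4% in Ctrl to 4.78% in Tet1/2 cKO. Ctrl held a peak of 3.03 kb at chr8:69746210-69749236 and another of 0.92 kb at chr8:69741840-69742759. Tet1/2 cKO held only a peak of 0.398 kb at chr8:69748676-69749073. Zfp957 went from 47.2% to 26.7%. Lists of both experiments differ in age, genotype and number of peaks, and were not compared with each other.

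Among the 32 genes, 23 had an RPKM of at least 1 in 3 or more of the 9 VitC libraries and were tested. RPKM is reads per kilobase of exon, scaled to the mapped reads of the library. The highest mean RPKM over the 9 libraries were those of Zfp932, whose protein is known to bind retroviral elements, at 7.78 ± 1.50 (SD, n = 9), Zfp954 at 5.59 ± 1.54, Zfp961, known to bind the primer binding site of some retroelements, at 5.08 ± 1.13, Zfp956 at 4.31 ± 1.37 and Zfp949 at 3.87 ± 0.820. These 5 genes followed each other in steps smaller than their SD except that from Zfp932 to Zfp954. The lowest were Zfp936 and Zfp957, with means of 0.00418 and 0.00445. The median of the 32 means was 1.86, against 1.37 over all entries and 1.96 over the other Zfp genes. Genes with more of the mark in MC3T3-E1 cells were not the lower ones in femur. The 14 genes with at least 50% of the locus within H3K9me3 peaks in VitC- had a median of 2.69 RPKM and 12 of them were tested, the 9 genes between 10% and 50% had 1.25 and 6 tested, and the 9 under 10% had 1.40 and 5 tested. Across the 32 genes Spearman's rho between both values was 0.063, given as a description since cells and femur are different samples.

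Zfp932 was lower after VitC withdrawal. It stood at 8.40, 9.11 and 9.25 RPKM in VitC+ replicates 1 to 3 and at 5.77, 5.62 and 6.14 in VitC+/-, and at 8.73, 8.91 and 8.12 in WT. All 3 VitC+/- libraries lay below all other libraries. The fit used limma on log2 of scaled RPKM plus 0.5, adjusted over all 12571 genes tested, and on that scale the log2 change was -0.70 (SE 0.15, n = 3 against 3, limma adjusted p = 0.0170) against VitC+ and -0.55 (SE 0.15, limma adjusted p = 0.0196) against WT. Without VitC+ replicate 1 and WT replicate 3 neither call was made (limma adjusted p = 0.115 and 0.0648), and over 18 alternatives the limma adjusted p ran from 0.0151 to 0.115 against VitC+ and from 0.0176 to 0.0648 against WT. Leaving out VitC+/- replicate 1 also ended both calls (limma adjusted p = 0.0630 and 0.0608), as did leaving out VitC+ replicate 1 for the first (limma adjusted p = 0.0588) and WT replicate 3 for the second (limma adjusted p = 0.0587). The 2 comparisons share the VitC+/- libraries. Zfp932 has a close paralog that can share its reads, and both tables place it differently, so its level is uncertain. It ranked 1 of 32 by mean RPKM, but 25 of 32 in Ctrl femurs of the Tet table by normalized counts per kilobase of exon (12.7, against 365 for Zfp961 and 280 for Zfp954).

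**Figure D4:**
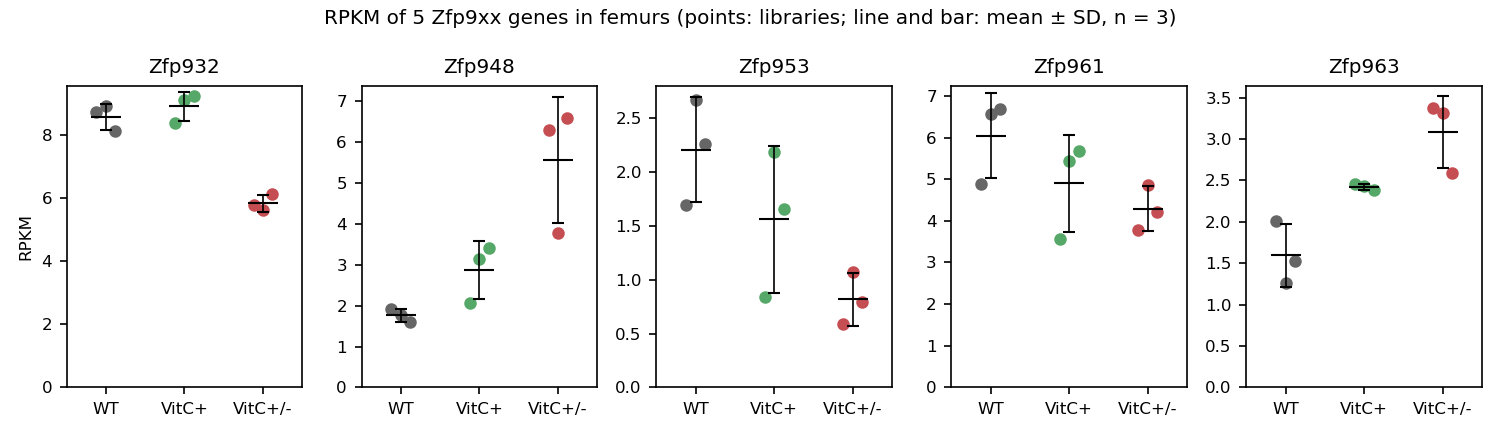
RPKM of Zfp932, Zfp948, Zfp953, Zfp961 and Zfp963 in each femur library of WT, VitC+ and VitC+/- mice, with the mean and SD of 3 libraries in black. Each axis starts at 0, and the VitC+/- libraries lie below all WT libraries for Zfp932, Zfp953 and Zfp961 and above them for Zfp948 and Zfp963.

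Zfp932 was the only 1 of 23 Zfp9xx genes to pass between VitC+/- and VitC+, where 13.5% of all genes passed. The groups did not overlap in 5 of the 23, against 32.5% of all genes. Between VitC+/- and WT 5 of 23 passed, against 31.0% of all genes, and 9 did not overlap, against 41.5%. The median log2 change over the 23 genes was -0.02 against VitC+ and -0.01 against WT, and over all genes 0.01 in both.

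Zfp948, in the chromosome 17 cluster, was higher in VitC+/- than in WT. It stood at 1.92, 1.77 and 1.61 RPKM in WT, at 2.07, 3.14 and 3.40 in VitC+ and at 6.30, 3.79 and 6.58 in VitC+/-. The 3 groups did not overlap. The log2 change against WT was 1.35 (SE 0.21, limma adjusted p = 0.00251), and that against VitC+ was 0.71 (SE 0.21) with a limma adjusted p of 0.0569, which did not pass. Zfp948 also passed against WT without the 2 libraries that went against their labels, the only 1 of the genes to do so, with a limma adjusted p of 0.0274 (0.000859 to 0.0274 over 18 alternatives, all of which it passed).

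Zfp963, which had no H3K9me3 peak and the largest share of 5hmC in VitC+ and VitC+/- femurs, was higher in VitC+/- than in WT as well. It stood at 2.01, 1.26 and 1.52 RPKM in WT, at 2.46, 2.44 and 2.39 in VitC+ and at 3.37, 3.31 and 2.59 in VitC+/-. WT lay below both Gulo groups and VitC+/- above VitC+. The log2 change against WT was 0.75 (SE 0.23, limma adjusted p = 0.0341). This call was lost on leaving out any of WT replicates 2 and 3 and VitC+/- replicates 1 and 2, and over 18 alternatives the limma adjusted p ran from 0.0170 to 0.108.

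Zfp953 and Zfp961 were lower in VitC+/- than in WT. Zfp953 stood at 1.70, 2.66 and 2.26 RPKM in WT, at 0.835, 2.19 and 1.66 in VitC+ and at 0.585, 1.08 and 0.793 in VitC+/-, with a log2 change of -1.06 against WT (SE 0.24, limma adjusted p = 0.0105). Zfp961 stood at 4.88, 6.58 and 6.69 RPKM in WT, at 3.56, 5.45 and 5.69 in VitC+ and at 3.79, 4.87 and 4.22 in VitC+/-, with a log2 change of -0.48 against WT (SE 0.15, limma adjusted p = 0.0424). The WT and VitC+/- libraries did not overlap for either gene, although the lowest WT value of Zfp961 lay just above the highest of VitC+/-, and the VitC+ libraries overlapped VitC+/- in both. Without the 2 libraries that went against their labels neither passed (limma adjusted p = 0.0522 and 0.209). Zfp953 passed in the other 17 of 18 alternatives, with limma adjusted p values from 0.00520. Zfp961 passed in 6 of 18, its limma adjusted p ran from 0.0244 to 0.209, and it was lost on leaving out any 1 library other than WT replicate 1 and VitC+/- replicate 2.

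**Figure D5:**
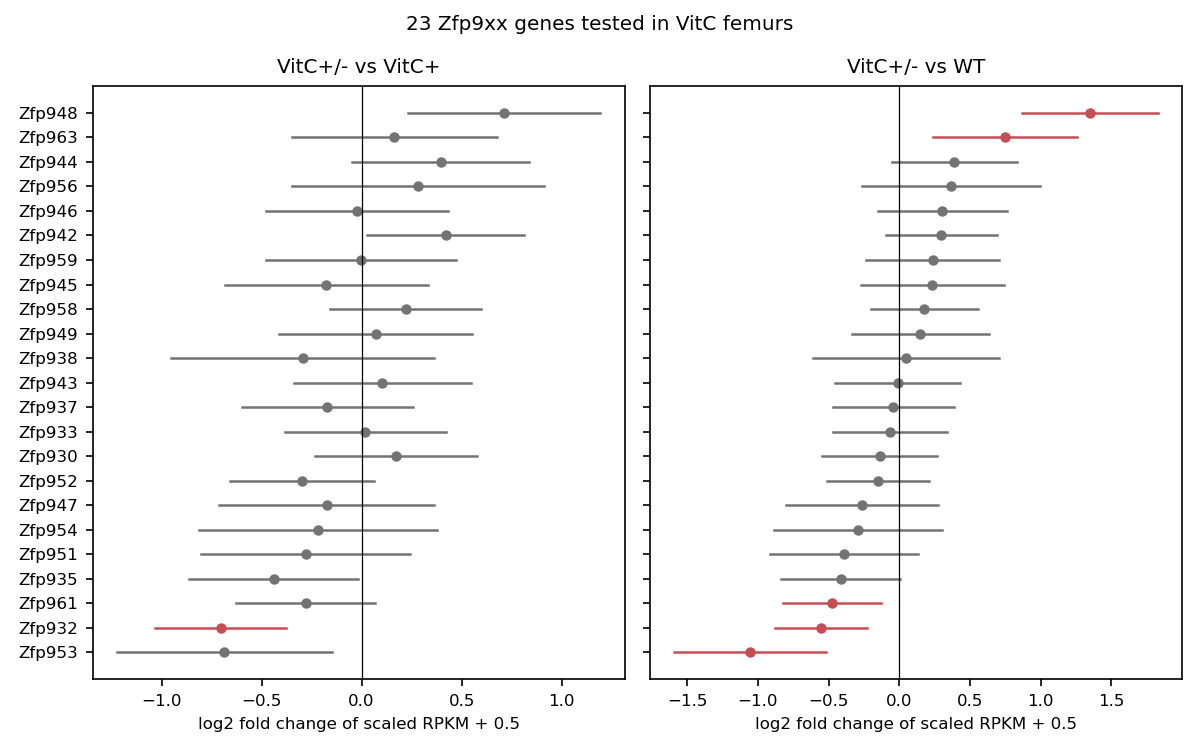
Log2 fold change of scaled RPKM + 0.5 with its 95% interval for the 23 Zfp9xx genes tested, VitC+/- against VitC+ on the left and VitC+/- against WT on the right, with genes that passed in red. The 2 panels share the VitC+/- libraries, and 1 gene is red on the left and 5 on the right.

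Of the 5 genes that passed against WT, Zfp932 had 80.6% of its locus within H3K9me3 peaks in VitC- MC3T3-E1 cells, Zfp948 16.4%, Zfp961 16.1%, and Zfp953 and Zfp963 0%. Between WT and VitC+ none of the 23 genes passed, nor did any of the 12571 genes tested with limma (0%). At an unadjusted p under 0.05 there were 2 Zfp9xx genes, Zfp948 and Zfp963, both lower in WT, with log2 changes of -0.63 and -0.58, against 21.6% of all genes. Without the 2 libraries that went against their labels no Zfp9xx gene stood at an unadjusted limma p under 0.05 (0.0669 for Zfp948 and 0.187 for Zfp963), against 7.35% of all genes. In the full comparison 3 genes did not overlap (22.0% of all).

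Loss of Tet genes gave no change that passed in the Zfp9xx genes. All 32 were listed in the table of normalized counts, 30 were tested, and Zfp936 and Zfp957 were too low. With limma, 0 of 30 passed in Tet1/2 cKO, Tet1 cKO and Tet2 cKO against Ctrl, where 0%, 0.0119% and 0.0119% of 16780 genes passed. On recovered reads, edgeR and DESeq2 also gave 0 of the 30 in each, but were run without Tet1 cKO replicate 3. At an unadjusted p under 0.05 limma gave 1, 2 and 2 of them, against 5.05%, 2.28% and 2.19% of all genes. Zfp960 was the 1 in Tet1/2 cKO, with a mean of 6.13 normalized counts against 27.2 in Ctrl and overlapping groups. In Tet1 cKO they were Zfp934, at 209 against 101, and Zfp951, at 95.2 against 179. In Tet2 cKO they were Zfp951, at 93.1 against 179, and Zfp932, at 49.6 ± 23.1 (SD, n = 3) against 97.9 ± 27.3. The 3 comparisons share the Ctrl libraries. Zfp963, whose 5hmC share was smaller in Tet1/2 cKO, had 377 ± 77.8 normalized counts there and 382 ± 62.8 in Ctrl.

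The genes that act with KRAB zinc fingers were measured in the same VitC femurs. They come from a list chosen with earlier results of these data known. Of 34 tested genes for writers, readers and erasers of H3K9 and DNA methylation, 6 passed between VitC+/- and VitC+, 4 higher and 2 lower, and 8 between VitC+/- and WT, 5 higher and 3 lower. These are 17.6% and 23.5% of the list, where 13.5% and 31.0% of all genes passed. Trim28, the corepressor, stood at 39.7, 41.8 and 44.4 RPKM in VitC+/- and at 30.6, 41.0 and 46.5 in VitC+ (log2 change -0.03, limma adjusted p = 0.883). Setdb1, the methyltransferase, stood at 11.3, 11.8 and 10.3 RPKM in VitC+/- and at 6.01, 9.12 and 9.80 in VitC+ (log2 change 0.29, limma adjusted p = 0.149). Neither passed against VitC+ or WT, although the Setdb1 values of VitC+/- lay above those of VitC+.

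Among the genes that passed, Kdm3a, an H3K9 demethylase that uses VitC as a cofactor, stood at 16.6, 14.6 and 17.7 RPKM in VitC+/-, at 6.68, 7.15 and 8.35 in VitC+ and at 6.00, 7.87 and 6.57 in WT, with log2 changes of 0.95 against VitC+ (SE 0.15, limma adjusted p = 0.00565) and 1.16 against WT (SE 0.15, limma adjusted p = 0.0010). Its VitC+/- libraries lay above all others. Kdm4b, an H3K9me3 demethylase, was higher than in these groups by 0.70 and 1.05 on the log2 scale, Tet2 by 0.96 and 0.63, and Morc2a, which acts with the HUSH silencing complex, by 0.67 and 0.94. Kdm4a was higher (0.45) and Morc3 lower (-0.46) against WT. The deacetylases Hdac1 and Hdac2, part of the NuRD complex that TRIM28 recruits, were lower by log2 changes of -0.44 and -0.77 against VitC+ and of -0.74 and -0.88 against WT. Without the 2 libraries that went against their labels, Kdm3a passed in both comparisons and Hdac1, Hdac2, Kdm4b and Morc2a against WT. Hdac1, Hdac2, Kdm4b, Morc2a and Tet2 then did not pass against VitC+ (limma adjusted p from 0.0745 to 0.177), nor did Kdm4a, Morc3 and Tet2 against WT (limma adjusted p = 0.107, 0.126 and 0.116). These 8 calls passed in 8 to 14 of 18 alternatives each, and leaving out VitC+/- replicate 1 alone ended all 8, while the other 6 passed in all 18. None of these genes passed between WT and VitC+ or in the Tet femurs.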

How the data were processed

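RNA of 9 VitC and 12 Tet femur libraries and 10 pooled peak lists were analysed. Per the labels and methods, the authors aligned RNA reads to mm10 with STAR (2.6.0b-1) and counted them with featureCounts (1.6.3). The library kit does not keep strand. The deposited VitC values are RPKM with a locus per gene, and the deposited Tet values are normalized counts (a signal, read counts divided by a size factor) from DESeq2 (2.11.40.2). The authors mapped ChIP and 5hmC reads with BWA (0.7.15.1) and called peaks on pooled samples with MACS2 (broad peaks for histones). Each deposited peak has a fold enrichment, which is a ratio, and a −log10 q-value. Histone lists reach a −log10 q of about 1.01 and 5hmC lists of about 1.30. The VitC femur 5hmC lists hold autosomes only, so shares are given over 22289 autosomal entries.

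RPKM were scaled by median-of-ratios factors (0.746 to 1.11) from the genes tested, after 69 entries that share a name were dropped, and were fitted as log2(RPKM + 0.5) with limma 3.58.1 (R 4.3.3; all 3 groups, trend; RPKM of at least 1 in 3 libraries). Factors over all genes above 0 in every library were run first. Tet values were fitted as log2(value + 1), with at least 10 in 3 libraries. p-values were adjusted by Benjamini-Hochberg over all genes, at 0.05, two-sided. Whole reads were recovered from the steps of the Tet values (100% whole in each library, within 0.1) and tested with edgeR 4.0.16 and DESeq2 1.42.0, without Tet1 cKO replicate 3. VitC depth is an estimate from RPKM and exon length, in which 71.0% to 78.9% of low values lay within 0.1 of a whole read. Exons, strands and sequences are RefSeq on GRCm38 (32 of 32 genes matched, 19709 of all). The fits and the peak counts were tested on simulated data.

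Nothing in the labels ties replicates to litters, so p-values measure the spread between these mice. Members, lists and alternatives were chosen with earlier results of these data known. Named were all members past the threshold, the 5 with the highest RPKM, the 6 with most H3K9me3 in VitC-, the 5 largest rises and falls of it, members with H3K27me3 over at least 10% of the locus, and the 4 with most 5hmC in VitC+ femurs and the largest 5hmC differences in MC3T3-E1 cells, and pathway genes past the threshold. Others named (the 5 without H3K9me3, Zfp946, exceptions, members at an unadjusted p under 0.05) were picked after their values were seen.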

Additional observations from a re-analysis of the deposited data

How the results depend on the processing

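Changing the scaling, the filter, the pseudocount, the groups in the fit, the replicate block or 1 library kept 277 of 360 values for the 20 calls of single genes (Zfp9xx and pathway, 18 alternatives each) past the threshold, lost 83 and reversed 0. Calls of Zfp9xx genes made only under an alternative numbered 12, in 6 genes (Zfp934, Zfp935, Zfp940, Zfp948, Zfp953 and Zfp956). The number of Zfp9xx genes that passed between VitC+/- and VitC+ was 1, and 0 with no further scaling, 2 when the limit on RPKM was set to 0.2 or dropped (Zfp940 was added), 3 with the replicate block (Zfp948 and Zfp953 were added), 0 without the 2 libraries that went against their Gulo labels, and 0 to 2 without 1 library. Between VitC+/- and WT it was 5, and 3 with no further scaling or with only the 2 groups in the fit, 1 without those 2 libraries, and 2 to 6 without 1 library. The replicate block left 5 there, changed no call in the other 4 comparisons, and rests on numbers that do not pair the mice, since same-numbered libraries correlated from -0.49 to 0.46. Every alternative of WT against VitC+ and of the 3 Tet comparisons gave 0. The share of all genes that passed under each alternative is not given here. A change in these counts therefore cannot be read as particular to the Zfp9xx genes. Leaving out those 2 libraries and the factors over all genes were chosen after seeing the data. The causes were not tested.

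For H3K9me3, 4 of the 32 genes were covered in VitC- with only peaks of at least 4-fold and 14 at a limit of 50% of the locus, which 1.08% of all entries reached. For H3K27me3 in VitC-, there were 0 with peaks of at least 4-fold, 2 with any overlap and 4 with 5 kb added on each side, and in VitC+ 0 with peaks of a −log10 q of at least 2, of at least 4-fold or at 50% of the locus and 2 with 5 kb added. For 5hmC in MC3T3-E1, VitC- gave 26 with any overlap, 0 at 50% and 0 with 5 kb added, and VitC+ gave 1 with peaks of at least 4-fold, 19, 0 and 1. Over all entries 37.0% in VitC- and 37.3% in VitC+ had no overlap, and 0.265% and 3.25% reached 50%. In femur, VitC+ gave 2 with peaks of at least 4-fold, 28 with any overlap and 0 at 50%, and VitC+/- gave 5, 29 and 0. Over all entries 35.6% in VitC+ and 36.7% in VitC+/- had no overlap, and 0.399% and 0.157% reached 50%. Ctrl gave 2, 13, 0 and, with 5 kb added, 2, and Tet1/2 cKO gave 6 with any overlap and 0 at 50%. Over all entries 28.2% in Ctrl and 42.0% in Tet1/2 cKO had no overlap, and 10.4% and 2.52% reached 50%. At the other limits for H3K27me3 and 5hmC, shares over all entries are not given here, so those counts are not set against the genome. Pooled lists hold no depth, so how far depth sets these counts was not tested, and WT replicate 1, the shallowest library, limits the WT values of low genes.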
